A study of Mus musculus with 4 samples.

Results

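Long noncoding RNA (lncRNA) promoters were examined for RNA polymerase II (Pol II) peaks in brain endothelial cells (ECs), comparing old mice of the WT Cre group with young mice of the EC-K4KO group. A promoter was the 1500 bp on either side of the transcription start site (TSS) of a GENCODE M21 gene typed lincRNA, antisense, processed_transcript or bidirectional_promoter_lncRNA. Starts within 3000 bp of a protein-coding TSS were left out, since a peak there cannot be given to one gene or the other. This kept 7657 of 9793 lncRNA genes, of which 5341 were lincRNA, 1860 antisense, 452 processed_transcript and 4 bidirectional_promoter_lncRNA genes. With 21938 protein-coding promoters as the comparison, 31731 genes were considered in all.

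The old WT Cre mice (genotype label CdH5CRE) carried the tamoxifen-inducible CDH5-CreERT2 transgene, driven by the promoter of the EC gene Cdh5, without deletion of Klf4. The young EC-K4KO mice (genotype label ECK4KO) carried the same Cre with floxed Klf4 alleles. The labels give the ages only as old and young. The study describes cohorts of 20 to 23 and 4 to 6 months. Its methods describe C57BL/6J mice of both sexes with Cre induced at 8 weeks of age. These values are not tied to single libraries. Chromatin of 200000 flow-sorted brain ECs per library was immunoprecipitated with an antibody to Pol II and sequenced, with 2 libraries per group. Age and genotype differed together between the groups and cannot be told apart, and the study's methods call the libraries biological replicates without saying whether each held 1 animal or a pool.

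Pol II transcribes lncRNA genes as it does protein-coding genes, and most lncRNAs are capped, spliced and polyadenylated like messenger RNAs. Many act in the nucleus, where they hold chromatin regulators or nuclear bodies in place, silence imprinted neighbours or an X chromosome, or serve as hosts from which small nucleolar RNAs or microRNAs are cut. Pol II that pauses shortly after initiation gives a peak just downstream of the TSS, most often at promoters rich in CpG dinucleotides. A peak shows where polymerase was enriched over all cells of a library, not how much RNA was made, and fewer cells with polymerase at a gene cannot be told apart from less polymerase per cell.

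The libraries differed in depth and in how many peaks they gave. Between 22705175 and 65734178 fragments per library entered peak calling, and the number of peaks ran from 35638 in young EC-K4KO replicate 1 to 235591 in young EC-K4KO replicate 2, the library with the fewest fragments. Peak counts therefore did not follow depth, and the young EC-K4KO replicates stood at both ends of the order. Each result is given per library for this reason. Of 12 EC marker promoters, 4 and 5 had a peak in the old WT Cre libraries, 0 and 6 in the young EC-K4KO libraries, where 22.9%, 22.4%, 9.47% and 63.4% of all protein-coding promoters had one. Of 6 microglial marker promoters the counts were 4, 2, 0 and 2, of 8 neuronal 1, 2, 1 and 5, of 6 astrocyte 1, 1, 1 and 1, of 6 oligodendrocyte 0, 1, 1 and 5, and of 6 mural cell markers 2, 0, 1 and 4, in the same order. EC markers were thus not the only cell type markers with peaks, and lists this short were not tested against the share over all protein-coding promoters. The part of other cells in the results below was not tested. The Klf4 promoter had a peak in both young EC-K4KO libraries, with fold enrichments of 4.20 and 4.17, and none in old WT Cre. With summits at -995 and 1198 bp from the TSS, these were different peaks. That is no check of the deletion, because the promoter window need not include the deleted part of the gene.

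Sequences of 5 lncRNA promoters show the difference in CpG content on which much of what follows turns. Each run covers the 50 bases before the TSS and the 250 bases from it onwards in the direction of transcription, 5′ to 3′, read from mm10, with CpG dinucleotides in capitals. The first 3 are CpG-rich promoters, with a peak in 3 libraries (2900097C17Rik, the mouse counterpart of the human lncRNA NORAD, chr2:156392730-156393029, minus strand), in both young EC-K4KO libraries (Snhg6, a host gene of small nucleolar RNAs, chr1:9943869-9944168, minus strand) and in both old WT Cre libraries (Zim3, chr7:6977171-6977470, minus strand). AC132253.9 (chr19:9836648-9836947, minus strand) is not CpG-rich and had a peak in all 4 libraries. Malat1 (chr19:5802423-5802722, minus strand), an abundant lncRNA of nuclear speckles, is not CpG-rich and had a peak in 1 library.
2900097C17Rik: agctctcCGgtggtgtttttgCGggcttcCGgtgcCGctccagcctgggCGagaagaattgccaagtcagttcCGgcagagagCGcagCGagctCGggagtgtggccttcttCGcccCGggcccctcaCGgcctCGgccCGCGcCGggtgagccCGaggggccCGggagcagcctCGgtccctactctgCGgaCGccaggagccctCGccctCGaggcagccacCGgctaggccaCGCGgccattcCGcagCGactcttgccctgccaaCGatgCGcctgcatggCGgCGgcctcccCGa
Snhg6: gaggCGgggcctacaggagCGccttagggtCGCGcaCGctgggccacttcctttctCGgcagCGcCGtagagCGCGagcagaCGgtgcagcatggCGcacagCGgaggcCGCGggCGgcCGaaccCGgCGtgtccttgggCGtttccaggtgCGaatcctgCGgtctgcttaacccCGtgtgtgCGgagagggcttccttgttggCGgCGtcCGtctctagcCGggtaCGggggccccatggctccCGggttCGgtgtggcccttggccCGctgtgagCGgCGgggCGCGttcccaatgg
Zim3: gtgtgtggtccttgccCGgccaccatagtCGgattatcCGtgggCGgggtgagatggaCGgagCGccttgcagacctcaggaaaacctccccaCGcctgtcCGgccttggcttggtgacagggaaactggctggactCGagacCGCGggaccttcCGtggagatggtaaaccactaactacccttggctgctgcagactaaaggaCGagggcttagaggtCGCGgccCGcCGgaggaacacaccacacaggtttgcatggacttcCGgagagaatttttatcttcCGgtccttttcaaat
AC132253.9: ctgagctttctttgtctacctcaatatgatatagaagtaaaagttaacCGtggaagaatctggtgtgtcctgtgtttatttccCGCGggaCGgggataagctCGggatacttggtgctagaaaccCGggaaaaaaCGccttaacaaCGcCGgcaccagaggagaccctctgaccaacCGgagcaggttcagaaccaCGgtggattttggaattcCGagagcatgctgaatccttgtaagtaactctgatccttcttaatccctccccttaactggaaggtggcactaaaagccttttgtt
Malat1: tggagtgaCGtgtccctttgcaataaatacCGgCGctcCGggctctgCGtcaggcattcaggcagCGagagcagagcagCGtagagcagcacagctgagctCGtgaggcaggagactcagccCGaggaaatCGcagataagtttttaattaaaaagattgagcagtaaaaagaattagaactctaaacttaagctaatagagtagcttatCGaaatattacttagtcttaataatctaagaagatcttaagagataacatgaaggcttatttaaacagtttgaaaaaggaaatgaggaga
The 300 bases hold 33 CpG dinucleotides at 2900097C17Rik, 36 at Snhg6 and 19 at Zim3, against 12 at AC132253.9 and 11 at Malat1. Summits of the peaks at Snhg6 lay 115 and 80 bp downstream of the TSS, those at Zim3 59 and 22 bp downstream, and those at AC132253.9 between 107 and 144 bp downstream, all within the stretches shown. At Malat1 the summit lay upstream of the TSS, at -745 bp, outside the stretch shown.

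Fewer lncRNA than protein-coding promoters held a Pol II peak in every library. Among lncRNA promoters, 1106 (14.4%) and 587 (7.67%) of 7657 had a peak in old WT Cre replicates 1 and 2, against 360 (4.70%) and 2788 (36.4%) in young EC-K4KO replicates 1 and 2. Among protein-coding promoters the shares were 22.9%, 22.4%, 9.47% and 63.4%. The exact (Clopper-Pearson) 95% intervals of the lncRNA shares, which cover counting error only, were 13.7 to 15.3%, 7.08 to 8.28%, 4.24 to 5.2% and 35.3 to 37.5%. The lncRNA minus protein-coding differences were -8.42, -14.7, -4.77 and -27.0 percentage points, with a mean of -13.7 ± 9.77 (SD, n = 4 libraries). An exact two-sided sign-flip permutation over the 4 libraries gave p = 0.13, the smallest value that 4 libraries allow. Relative to protein-coding promoters, a lncRNA promoter was 0.632, 0.343, 0.497 and 0.574 times as likely to hold a peak.

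**Figure D1:**
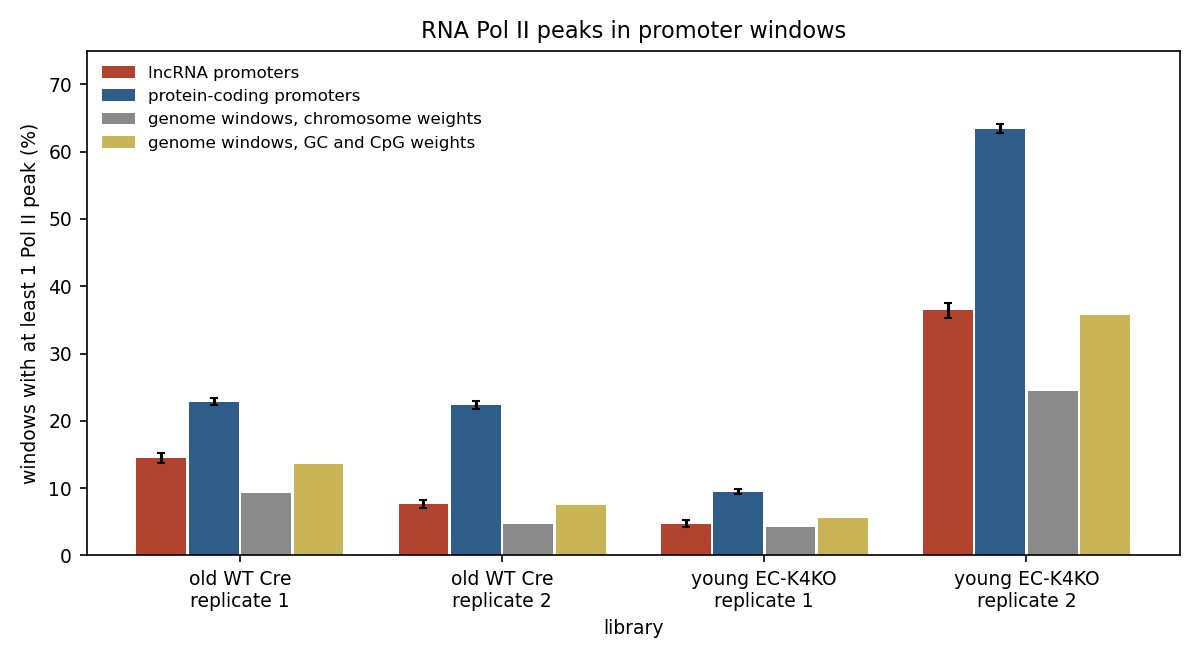
Percent of windows with at least 1 Pol II peak (vertical axis) in each library (horizontal axis) for lncRNA promoters, protein-coding promoters and genome windows weighted by chromosome or by GC content and CpG class. Error bars are exact 95% intervals for counting error, and the lncRNA share lies below the protein-coding share in each library and close to the GC-weighted genome share, for example 36.4% against 35.8% in young EC-K4KO replicate 2.

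The lncRNA starts that were left out because a protein-coding TSS lay within 3000 bp had peaks at other rates. Of these 2136 starts, 28.4% and 28.9% had a peak in old WT Cre, against 11.6% and 75.5% in young EC-K4KO, above both the lncRNA and the protein-coding share in each library. Among the lncRNA promoters that were kept, those farthest from protein-coding starts held the fewest peaks. Those 3 to 10 kb from the nearest protein-coding TSS (908 genes) had a peak in 16.5%, 9.69%, 4.85% and 41.7% of cases in the 4 libraries, in the order old WT Cre 1 and 2 and young EC-K4KO 1 and 2. Those over 200 kb away (1503 genes) had one in 7.92%, 4.66%, 3.79% and 26.0%, the lowest of the 4 distance classes in each library.

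The genome at large gave the second yardstick. It was divided into 881763 windows of 3 kb without gaps, as long as the promoters, each chromosome weighted as it was among the lncRNA promoters, and 9.19%, 4.67%, 4.17% and 24.4% of windows held a peak. The lncRNA share was higher by 5.25, 3.0, 0.529 and 12 percentage points (mean 5.19 ± 4.93, SD, n = 4 libraries, exact sign-flip permutation p = 0.13, the smallest possible). The mean was 2.93 points without young EC-K4KO replicate 2, 1.99 with lists of equal length, 3.32 at a −log10 q of at least 5 and 3.43 at a fold enrichment of at least 4, where the sign was not the same in all 4 libraries. As a ratio, lncRNA promoters held peaks 1.57, 1.64, 1.13 and 1.49 times as often as genome windows, and protein-coding promoters 2.49, 4.79, 2.27 and 2.60 times as often.

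Base composition differed between lncRNA promoters and the genome, and the share of windows with a peak was higher at high than at low GC content in both. In the 500 bp on either side of the TSS the median GC content was 46.1% for lncRNA promoters, 54.7% for protein-coding promoters and 41.5% for genome windows. Among lncRNA promoters with 35 to 40% GC, 4.52%, 2.26%, 2.38% and 17.1% held a peak, against 4.78%, 2.51%, 2.60% and 14.1% of genome windows of that GC content. With 45 to 50% GC the lncRNA shares were 16.3%, 7.95%, 6.24% and 42.0% and the genome shares 15.6%, 7.24%, 6.42% and 39.1%. With 55 to 60% GC they were 27.3%, 24.5%, 7.88% and 67.3% against 22.1%, 18.5%, 7.85% and 65.6%. When genome windows were weighted by GC content and CpG class as the lncRNA promoters, in place of chromosome, their shares became 13.5%, 7.54%, 5.59% and 35.8%. The lncRNA share then differed by 0.938, 0.128, -0.893 and 0.660 points, a mean of 0.208 ± 0.807 (SD, n = 4 libraries, exact sign-flip permutation p = 0.625). Using only the 816616 windows whose centre lay over 3000 bp from every lncRNA and protein-coding TSS gave differences of 0.948, 0.385, -1.14 and 1.49 points (mean 0.422 ± 1.13, exact sign-flip permutation p = 0.5). These weightings dropped the match by chromosome, so GC content was also matched within chromosomes, with all else kept. The genome shares were then 13.2%, 7.31%, 5.49% and 34.5%, and the lncRNA share differed by 1.26, 0.354, -0.792 and 1.9 points (mean 0.680 ± 1.17, exact sign-flip permutation p = 0.375). Adding CpG class to chromosome and GC content gave a mean of 0.561 ± 1.13, and GC content and CpG class on the autosomes alone 0.733 ± 1.21. All of these weightings were added after the data had been seen. In each of them the difference was smaller than its spread between libraries and was below 0 in young EC-K4KO replicate 1. Without matching of GC content the lncRNA share was higher in 4 of 4 libraries, though not at a fold enrichment of at least 4.

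**Figure D2:**
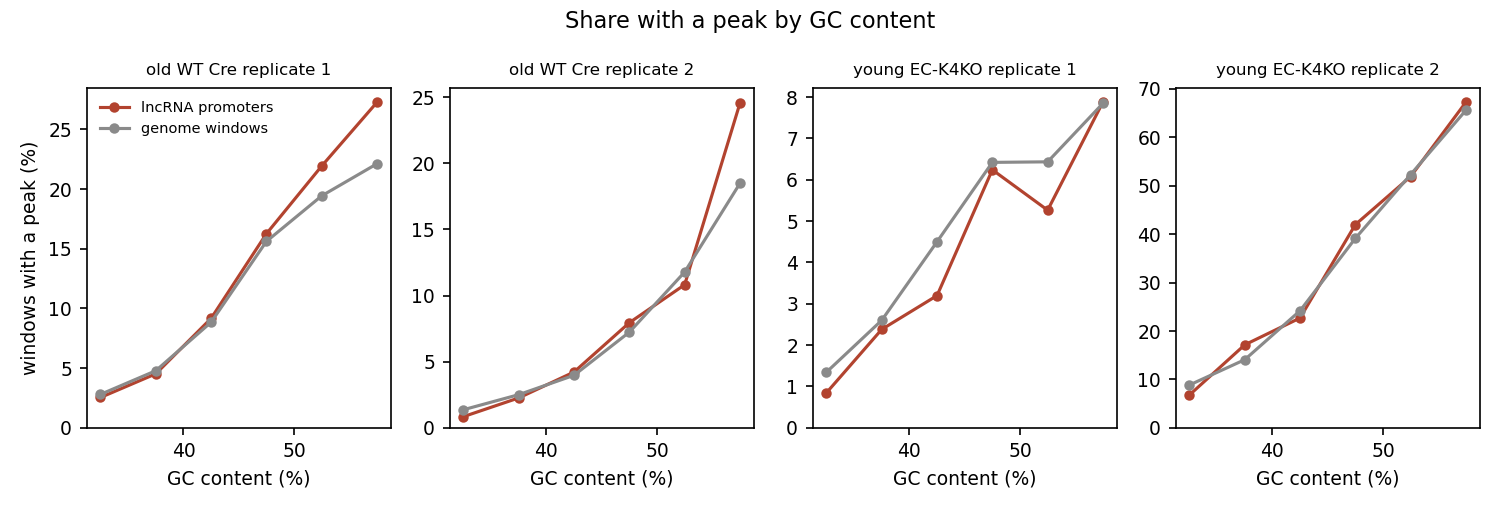
Percent of windows with a peak (vertical axis, scaled per library) by GC content of the 500 bp on either side of the window's centre in bins of 5 percentage points (horizontal axis, bin centres) for lncRNA promoters and genome windows, one panel per library. The curves lie close to each other and are higher at high GC in every panel, with a dip for lncRNA promoters from 6.24% to 5.26% between 45 to 50% and 50 to 55% GC in young EC-K4KO replicate 1. They run, for example, from 17.1% and 14.1% at 35 to 40% GC to 67.3% and 65.6% at 55 to 60% GC in young EC-K4KO replicate 2.

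CpG-rich lncRNA promoters were few and held peaks more often than the other lncRNA promoters. A promoter was called CpG-rich with an observed to expected CpG ratio of at least 0.6 and a GC content of at least 50% in the 500 bp on either side of the TSS. That held for 224 lncRNA promoters (2.93%), 9738 protein-coding promoters (44.4%) and 5402 genome windows (0.613%). Of the CpG-rich lncRNA promoters, 82 (36.6%) and 68 (30.4%) had a peak in the old WT Cre libraries, against 28 (12.5%) and 181 (80.8%) in the young EC-K4KO libraries. Of the other 7433 lncRNA promoters, 13.8%, 6.98%, 4.47% and 35.1% had one. CpG-rich lncRNA promoters were higher by 22.8, 23.4, 8.03 and 45.7 points (mean 25 ± 15.5, SD, n = 4 libraries, exact sign-flip permutation p = 0.13, the smallest possible). CpG-rich protein-coding promoters had peaks in 31.2%, 35.3%, 12.9% and 85.5% of cases, so that the lncRNA share was higher in old WT Cre replicate 1 by 5.37 points and lower in the others, with differences of -4.99, -0.408 and -4.73 points. The mean difference of -1.19 ± 4.85 points was smaller than its spread (exact sign-flip permutation p = 0.75), which does not show that the classes were alike. Among promoters that were not CpG-rich, the lncRNA share stayed below the protein-coding share, which was 16.2%, 12%, 6.72% and 45.8%, in 4 of 4 libraries (mean difference -5.10 ± 3.96, exact sign-flip permutation p = 0.13). CpG-rich genome windows had peaks in 34.2%, 36.2%, 15.0% and 85.1% of cases. These windows were not kept away from annotated starts and can be promoters themselves.

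**Figure D3:**
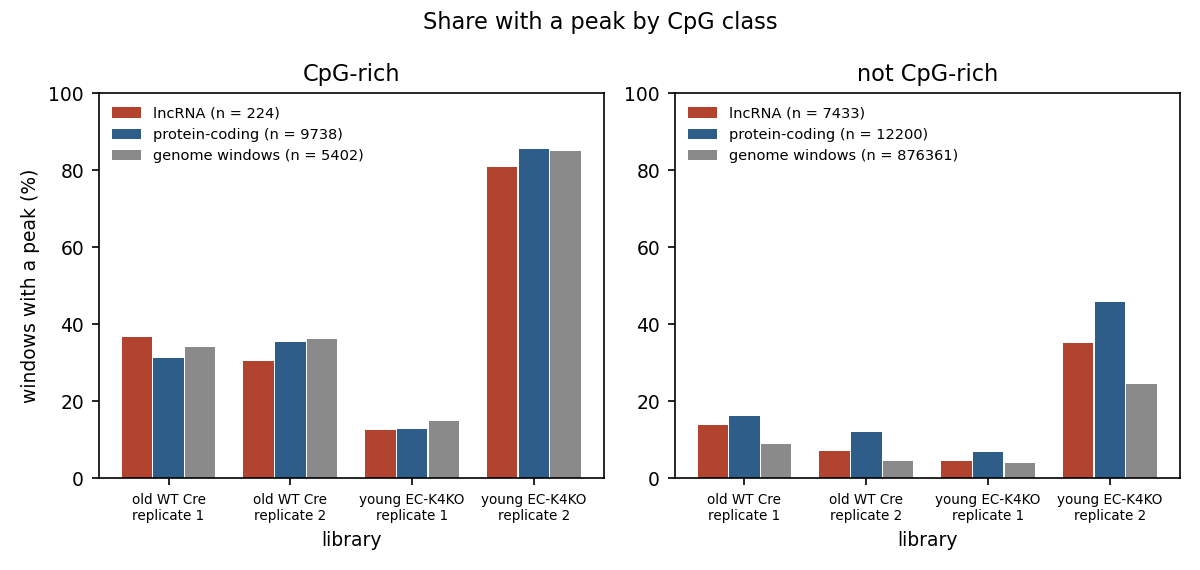
Percent of windows with a peak (vertical axis) in each library (horizontal axis), for CpG-rich windows on the left and all others on the right, with the number of windows in the key. CpG-rich lncRNA promoters stand near the protein-coding bars (80.8% against 85.5% in young EC-K4KO replicate 2), while other lncRNA promoters lie between genome windows and protein-coding promoters. Genome windows include those at annotated starts.

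CpG content went with the number of libraries in which a promoter had a peak. Of the 1022 lncRNA promoters with a peak in 2 or more libraries, 111 (10.9%) were CpG-rich, against 91 (3.56%) of the 2558 with a peak in 1 library and 22 (0.540%) of the 4077 with none. In the 250 bases before the TSS and the 50 from it, the GC box GGGCGG, a site of Sp and KLF factors, occurred on either strand in 9.23% of lncRNA promoters, 43.0% of protein-coding promoters, 64.3% of CpG-rich lncRNA promoters and 71.7% of CpG-rich protein-coding promoters. The ETS motif CCGGAAGT occurred in 1.03% of lncRNA promoters, 4.46% of the CpG-rich ones, 4.70% of protein-coding promoters and 8.37% of CpG-rich protein-coding promoters. The TATA box (TATAAA) occurred in 15.4% of lncRNA and 12.6% of protein-coding promoters. It was less frequent among CpG-rich promoters, with 8.93% of lncRNA and 5.83% of protein-coding ones, and among the others the order of the classes was reversed, with 15.6% of lncRNA and 18.1% of protein-coding promoters. The CCAAT box (CCAAT) was found in 40.2% of lncRNA and 39.0% of protein-coding promoters, the CRE (TGACGTCA) in 0.757% and 2.43%, and the E-box (CACGTG) in 5.24% and 7.75%. Among lncRNA promoters with a peak in 2 or more libraries, 18.8% held the GC box and 1.96% the ETS motif, against 5.81% and 0.883% of those with no peak. These are matches of letters in a window and do not show that a factor was bound.

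Peaks piled up at lncRNA starts, though less than at protein-coding starts. The percent of TSSs with a peak at a given distance was highest 50 to 100 bp downstream of the lncRNA TSS in all 4 libraries, at 2.12% and 1.28% in old WT Cre, against 0.757% and 6.20% in young EC-K4KO. That was 2.35, 3.04, 2.86 and 2.73 times the mean 2500 to 3000 bp away on either side. For protein-coding starts the maximum lay 100 to 150 bp downstream and was 7.29, 22.1, 7.80 and 11.9 times the flanks. CpG-rich lncRNA starts reached 13.4%, 11.6%, 5.36% and 40.6%, which was 7.59, 7.15, 8.80 and 11.9 times their flanks, and other lncRNA starts 2.04, 2.51, 2.43 and 2.31 times theirs.

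**Figure D4:**
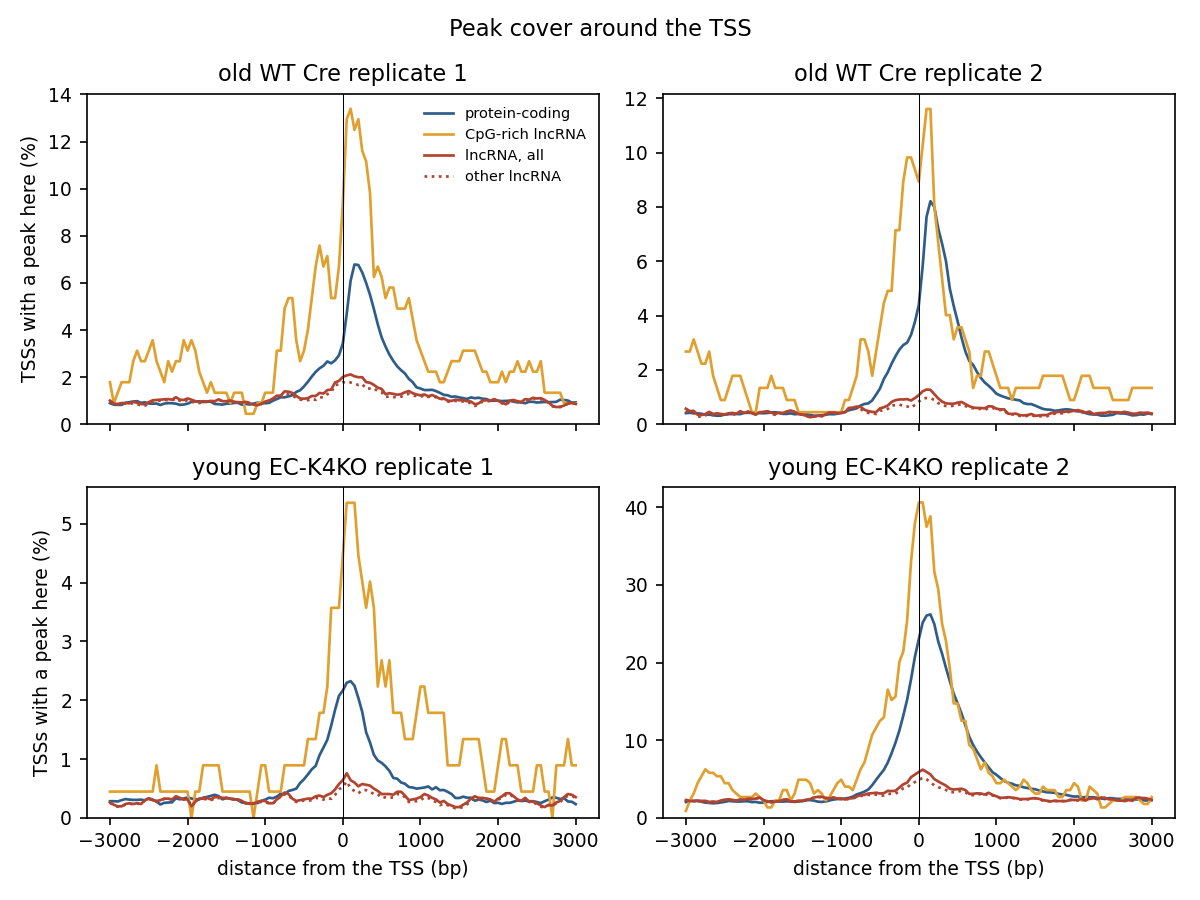
Percent of starts that lie under a peak (vertical axis, scaled per library) at each distance from the TSS in the direction of transcription (horizontal axis, bp, steps of 50 bp) for protein-coding, all lncRNA, CpG-rich lncRNA and other lncRNA promoters. CpG-rich lncRNA starts have the tallest maximum in every library (40.6% in young EC-K4KO replicate 2, where protein-coding starts reach 26.2% and all lncRNA starts 6.20%).

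The position of the strongest peak within the window also differed. Its summit lay downstream of the TSS, within 1500 bp, at 50.9%, 51.3%, 50.6% and 49.5% of lncRNA promoters with a peak, and at 65.0%, 70.2%, 57.3% and 64.6% of protein-coding ones. The differences were -14.1, -18.9, -6.79 and -15.1 points (mean -13.7 ± 5.08, SD, n = 4 libraries, exact sign-flip permutation p = 0.13, the smallest possible). At a −log10 q of at least 5 the mean was -11.1 and the libraries no longer shared 1 sign. Summits within 500 bp of the TSS made up 39.7%, 46.7%, 42.2% and 41.8% at lncRNA promoters, 62.2%, 82.4%, 71.4% and 72.9% at CpG-rich lncRNA promoters and 55.5%, 67.8%, 59.2% and 63.5% at protein-coding promoters. The median distance from TSS to summit was 678, 542, 636 and 636 bp for lncRNA promoters and 423, 318, 361 and 335 bp for protein-coding promoters. Peak strength differed less. The median fold enrichment over local background was 3.94, 4.85, 4.14 and 5.03 at lncRNA promoters and 3.94, 4.99, 4.16 and 5.75 at protein-coding promoters, a mean difference of -0.220 ± 0.337 (SD, n = 4 libraries, exact sign-flip permutation p = 0.13), which rested mostly on young EC-K4KO replicate 2 with -0.717. It was -0.0538 without that library, -0.0730 without CpG-rich promoters and -0.0176 at a −log10 q of at least 5. In the last 2 settings its sign was no longer the same in all 4 libraries. The same held at a fold enrichment of at least 4, in a window of 3000 bp and over 10000 bp from every protein-coding TSS. It also held with no lncRNA start left out and with 1 member per cluster.

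The share with a peak also differed by gene type and surroundings. Antisense genes had a peak in 16.2%, 8.87%, 4.78% and 40.9% of cases and lincRNA genes in 13.5%, 6.96%, 4.66% and 33.9%, a mean difference of 2.94 ± 2.91 points (SD, n = 4 libraries, exact sign-flip permutation p = 0.13), which was 1.15 on the autosomes alone and 1.29 without windows over 50% repeat sequence. In both of these settings, and also with the stricter peak thresholds, a window of 500 bp, the summit inside the window or all transcript starts, the libraries did not all share 1 sign. Genes typed processed_transcript had one in 17.9%, 10.8%, 4.87% and 48.0%. The 1850 starts inside a protein-coding gene body had a peak in 16.1%, 8.97%, 4.32% and 40.8% and the 5807 outside in 13.9%, 7.25%, 4.82% and 35.0%, with the sign turned in young EC-K4KO replicate 1 (mean difference 2.31 ± 2.61, exact sign-flip permutation p = 0.25). That difference was 0.648 on the autosomes alone and 0.511 without windows over 50% repeat sequence. Single-exon genes, 319 in number, held peaks more often than multi-exon genes in 4 of 4 libraries, at 18.2%, 9.09%, 7.52% and 42.3% against 14.3%, 7.60%, 4.58% and 36.2% (mean difference of multi-exon minus single-exon -3.62 ± 1.96, SD, n = 4 libraries, exact sign-flip permutation p = 0.13). That difference was -2.40 on the autosomes alone and -1.93 at a −log10 q of at least 5, where it no longer had 1 sign in all 4 libraries. Without young EC-K4KO replicate 2 the antisense and gene body differences were 1.59 and 1.14 points. Other settings enlarged the differences, with 4.89 (antisense) and 4.44 (gene body) in a window of 3000 bp, and 8.29, 8.04 and -10.2 (multi-exon minus single-exon) with no lncRNA start left out. The 383 genes with a symbol other than a predicted or clone name had peaks in 20.4%, 11.5%, 3.92% and 46.0%. The 1026 promoters whose window was over 50% repeat sequence had peaks in 6.73%, 4.68%, 3.61% and 15.6%.

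The share of lncRNA promoters with a peak was lower on the sex chromosomes than on the autosomes. On the X chromosome this gap was relatively small in young EC-K4KO replicate 2. On the Y chromosome, 1, 0, 1 and 4 of 551 lncRNA promoters had a peak, where 0 allows a share of up to 0.544%. On the X chromosome, 5, 4, 0 and 44 of 137 did (3.65%, 2.92%, 0 and 32.1%), where 0 allows up to 2.19%, against 15.8%, 8.37%, 5.15% and 39.3% on the autosomes. Protein-coding promoters on the X chromosome had shares of 4.32%, 3.38%, 0.949% and 53.7%, against 23.9%, 23.4%, 9.93% and 64.4% on the autosomes. Young EC-K4KO replicate 2 thus differed from the other 3 libraries in having X-linked shares much nearer to its autosomal ones. The labels do not give the sex of the animals behind each library.

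The comparison of the groups asked whether lncRNA promoters differed in Pol II occupancy between old control and young Klf4-deleted ECs. The lncRNA share was 11.1% ± 4.79 (SD, n = 2) in old WT Cre, against 20.6% ± 22.4 (SD, n = 2) in young EC-K4KO, and the old WT Cre libraries lay between the young EC-K4KO ones. The difference of 9.50 points was smaller than the spread within the young EC-K4KO group (exact permutation p = 1, where 2 against 2 libraries cannot give a p under 0.33). It was -6.35 points when young EC-K4KO replicate 2 was left out, and with all lists cut to the length of the shortest it was -1.11 points, so its sign rested on 1 library and on list length. The ratio of the lncRNA to the protein-coding share was 0.487 ± 0.204 (SD, n = 2) in old WT Cre, against 0.535 ± 0.0547 (SD, n = 2) in young EC-K4KO (difference 0.0480, exact permutation p = 1). Its sign was not stable either, with -0.0965 without old WT Cre replicate 2, -0.105 with lists of equal length, -0.0330 at a −log10 q of at least 5 and -0.00158 without CpG-rich promoters.

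Few lncRNA promoters had a peak in both libraries of a group. Those with a peak in both old WT Cre libraries numbered 214 (2.79%, against 8.7% of protein-coding promoters), and those with a peak in both young EC-K4KO libraries 198 (2.59%, against 7.94%). The 214 were 19.3% of the lncRNA promoters with a peak in old WT Cre replicate 1 and 36.5% of those in replicate 2. For protein-coding promoters the shares were 38.1% and 38.9%. The 198 were 55% of those in young EC-K4KO replicate 1 and 7.1% of those in replicate 2, against 83.9% and 12.5% for protein-coding promoters. The list of young EC-K4KO replicate 2 held 53.2% of the lncRNA promoters with a peak in old WT Cre replicate 1 and 61.5% of those in old WT Cre replicate 2, beside the 55% of its own partner. In all, 3580 lncRNA promoters (46.8%) had a peak in at least 1 library and 2558 (33.4%) in exactly 1.

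A peak in all 4 libraries was found at 32 lncRNA promoters (0.418%, against 1.79% of protein-coding promoters). The 12 with the highest value of their smallest −log10 q are described first. The strongest signal stood at a single locus on chromosome 17, where Gm42418, AY036118 and Gm26917 start. RefSeq places Rn18s-rs5, a sequence related to 18S ribosomal RNA, at chr17:39846354-39848202 in the same build, over the starts of Gm42418 and AY036118. The peak at Gm42418, shared with AY036118, had pileups of 2330 and 1302 fragments in old WT Cre, against 1982 and 3132 in young EC-K4KO, at fold enrichments of 3.8, 3.23, 5.58 and 4.47. The groups overlapped in pileup. Fold enrichment was higher in both young EC-K4KO libraries, which was not tested, and the 3 genes do not count as separate observations.

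Gm11399, antisense to the centrosomal gene Sfi1, had fold enrichments of 10.2 and 11.7 in old WT Cre, against 8.78 and 11.9 in young EC-K4KO, with summits 538 to 569 bp downstream of its TSS. Gm17590, which starts inside a protein-coding gene on the opposite strand, had 15.5 and 15.5 in old WT Cre, against 5.2 and 6.96 in young EC-K4KO. Gm26763 had 7.64 and 12.6 in old WT Cre, against 3.65 and 4.33 in young EC-K4KO. Both genes were higher in each old WT Cre library than in either young EC-K4KO library. At Gm17590 the summits lay 748 to 770 bp downstream of the TSS in 3 libraries and at -271 bp in young EC-K4KO replicate 2, which is a different peak. Fold enrichments are relative to the background of their own library and were not tested between groups. How often the groups separate in this way over all promoters was not counted, so no group difference is read from single genes. AC132253.9, whose sequence is shown above, had 6.76 and 7.08 in old WT Cre, against 8.07 and 12.6 in young EC-K4KO, with the order of the groups reversed. A530040E14Rik had 7.61, 8.62, 5.65 and 13.5, with summits upstream of its TSS, between -406 and -365 bp, in all 4 libraries. The groups overlapped there and at Gm16028, which had 3.88, 6.10, 3.87 and 5.95. Speer4cos had 9.65, 8.20, 7.82 and 7.38, Nell1os 4.32, 8.58, 8.61 and 13.0, and 4930447F24Rik 7.11, 5.85, 4.91 and 4.61. At Nell1os the values of old WT Cre replicate 2 and young EC-K4KO replicate 1 were almost the same. The libraries did not all have the same peak at Speer4cos, with summits at 1124, 38, 70 and 1098 bp, or at 4930447F24Rik, with summits at 798, 750, 806 and -54 bp.

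Sequence around the summits of these promoters was often present elsewhere in the genome. In the 100 bp on either side of each summit, the share of 24-base words that also occur at another place on the assembled chromosomes, on either strand, was measured. It averaged over 50% across the libraries at 11 of the 12 members above, Gm11399 with 28.9% being the other one. Among all 32 members with a peak in 4 libraries, 17 (53.1%) were over 50%, against 38 of 175 (21.7%) with a peak in 3 libraries, 124 of 815 (15.2%) with a peak in 2 and 343 of 2558 (13.4%) with a peak in 1. Of the TSSs of members with no peak, 979 of 4077 (24%) were over 50%, measured around the TSS itself. At AC132253.9 86.0% of words recurred, with a median of 6 copies, at 2900097C17Rik 95.7%, with a median of 3 copies, and at Gm26763 100%, with a median of 12 copies. Reads from such copies can be placed at any of them, and the part of this in the peaks was not tested. Leaving out members over 50% lowered the count with a peak in all 4 libraries from 32 to 15, the count in both old WT Cre libraries from 214 to 151 and the count in both young EC-K4KO libraries from 198 to 151.

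At 6 members with a peak in all 4 libraries no word around any summit recurred. These were Hoxb3os, E130102H24Rik, Gm28182, Gm36445, Gm37359 and Gm44948, which were chosen after their values had been seen. Hoxb3os, typed antisense and 3060 bp from the TSS of the homeobox gene Hoxb2, had fold enrichments of 4.51 and 4.85 in old WT Cre, against 3.87 and 5.88 in young EC-K4KO. E130102H24Rik, a CpG-rich promoter on chromosome 4, had 4.88 and 4.83 in old WT Cre, against 3.90 and 6.0 in young EC-K4KO. In both genes the old WT Cre libraries lay between the young EC-K4KO ones. Their summits were spread over the window, at 1871, -6, -14 and 1468 bp from the TSS at Hoxb3os and -216, -166, 1278 and 1059 bp at E130102H24Rik. Gm28182, near the transcription factor gene Onecut1, had summits at 782, 771 and 768 bp in 3 libraries and at 1354 bp in young EC-K4KO replicate 2. Over the 32 members the summits of all 4 libraries fell within 150 bp of each other at 7 (21.9%), and over the 393 protein-coding promoters of that kind at 35 (8.91%). The 7 held 6 distinct peaks, and all but Gm11399 were over 50% repeated words. The median spread of the summits was 704 bp at the lncRNA and 694 bp at the protein-coding promoters.

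A peak in both libraries of one group and in neither of the other was found at 68 lncRNA promoters for old WT Cre (0.888%, against 0.82% of protein-coding promoters) and at 105 for young EC-K4KO (1.37%, against 2.89%). The old WT Cre count was close to the protein-coding background, and the young EC-K4KO count lay below it. Absence here means that no peak passed the peak caller's threshold, which depends on depth. Ranked by whichever −log10 q of the 2 libraries was smaller, the first 5 for old WT Cre were AC147251.1 with fold enrichments of 20.5 and 23.1, AC133607.3 with 8.83 and 9.0, Gm36107 with 6.95 and 8.05, Zim3 with 6.01 and 6.71, and A330048O09Rik, near Id4, with 6.5 and 6.42. Peaks at 3 of these genes reached into the window but had both summits over 1500 bp upstream of the TSS, at -1555 and -1553 bp at AC133607.3, -1885 and -2114 bp at Gm36107 and -1841 and -1676 bp at A330048O09Rik. Repeated words made up 3.93% of the sequence around the summits of AC147251.1 and 0% at Zim3, and 78.7% at AC133607.3, 96.3% at Gm36107 and 93.8% at A330048O09Rik. Zim3, an imprinted zinc finger gene typed here as antisense, was the only CpG-rich promoter among the 5, and its summits are the ones described with its sequence.

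For young EC-K4KO the first 5 were Gm44686 with 7.33 and 8.22, 1700021L23Rik with 5.77 and 8.62, Gm14149 with 5.89 and 5.89, Gm26516 with 4.97 and 5.79, and Gm44601 with 5.74 and 8.74. Gm44686 is antisense to Chd2, which encodes a chromatin remodeller, and starts 3733 bp from the Chd2 TSS, with summits at -169 and -222 bp. Gm26516 starts inside Sdc3, the gene of a heparan sulphate proteoglycan of the cell surface, on the opposite strand, with summits at -686 and -747 bp. No word recurred around the summits of Gm44686, 1700021L23Rik or Gm26516, whereas 100% did at Gm14149 and 96.9% at Gm44601, where the summits lay at -811 and -429 bp.

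Of 13 lncRNAs of chromatin and nuclear bodies, 4 and 3 had a peak in the pair of old WT Cre libraries, while 0 and 10 did in those of young EC-K4KO. Over all lncRNA promoters the shares were 14.4%, 7.67%, 4.70% and 36.4%, and over protein-coding promoters 22.9%, 22.4%, 9.47% and 63.4%, which is also the background of the shorter lists that follow. One had a peak in both old WT Cre libraries, 2900097C17Rik, which binds Pumilio proteins, with fold enrichments of 5.12 and 5.22 there and 5.39 in young EC-K4KO replicate 2. Lncpint had 4.13 in old WT Cre replicate 1, against 4.03 in young EC-K4KO replicate 2, with summits at -48 and -36 bp from the TSS. Miat, a lncRNA of nuclear bodies, had 2.91 and 3.8 in the same libraries, with summits at 395 and 764 bp. Pvt1, the neighbour of Myc, had 4.47 in old WT Cre replicate 2, against 4.41 in young EC-K4KO replicate 2, from different peaks with summits at -207 and -1447 bp. Malat1 had a peak only in old WT Cre replicate 2, with a fold enrichment of 6.24, and Neat1, which builds paraspeckles, only in young EC-K4KO replicate 2, with 2.91. Xist, which silences an X chromosome, and its activators Jpx and Ftx each had a peak only in young EC-K4KO replicate 2, with 5.22, 6.09 and 7.84, and Tsix, the antisense repressor of Xist, had none. Firre, another X-linked lncRNA, had one only in old WT Cre replicate 1, with 3.38. Dleu2 (4.38) and Trp53cor1 (5.09), which lies near the cell cycle inhibitor gene Cdkn1a, had theirs only in young EC-K4KO replicate 2.

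Of 19 host genes of small RNAs, 5 and 4 had a peak in old WT Cre, against 1 and 14 in young EC-K4KO, and 11 of the 19 were CpG-rich. As a share, each of the 4 counts was above that of all lncRNA promoters, and those of old WT Cre replicate 2 and young EC-K4KO replicate 1 were below that of protein-coding promoters. None had a peak in both old WT Cre libraries, and 1 did in both of young EC-K4KO, beside 2.79% and 2.59% of all lncRNA promoters. That was Snhg6, with fold enrichments of 4.78 and 10.2. Snhg8 had 6.20 in old WT Cre replicate 1, against 8.0 in young EC-K4KO replicate 2, with summits at -342 and 5 bp from the TSS. Snhg5, Snhg12 and Snhg17 had 5.54, 6.06 and 3.93 in old WT Cre replicate 2, against 6.57, 5.60 and 5.40 in young EC-K4KO replicate 2. The summits of these libraries lay at -413 and -144 bp at Snhg5, at 141 and 230 bp at Snhg12 and at 114 and 1527 bp at Snhg17, where the peaks were different ones. These genes host small nucleolar RNAs, which guide the modification of ribosomal RNA. Mir155hg, host of the inflammatory microRNA miR-155, had 4.70 in old WT Cre replicate 1, against 6.64 in young EC-K4KO replicate 2, and Mir142hg, the host of a microRNA of blood cells, 3.21 and 6.82 in the same libraries. Mir124-2hg, host of a neuronal microRNA, had 3.87 and 3.49 in those libraries, and Mir17hg, host of the miR-17-92 cluster, had no peak in any library. At these 3 genes with peaks the summits of the libraries lay 73 and -278 bp (Mir155hg), 799 and 1145 bp (Mir142hg) and 838 and 577 bp (Mir124-2hg) from the TSS.

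**Figure D5:**
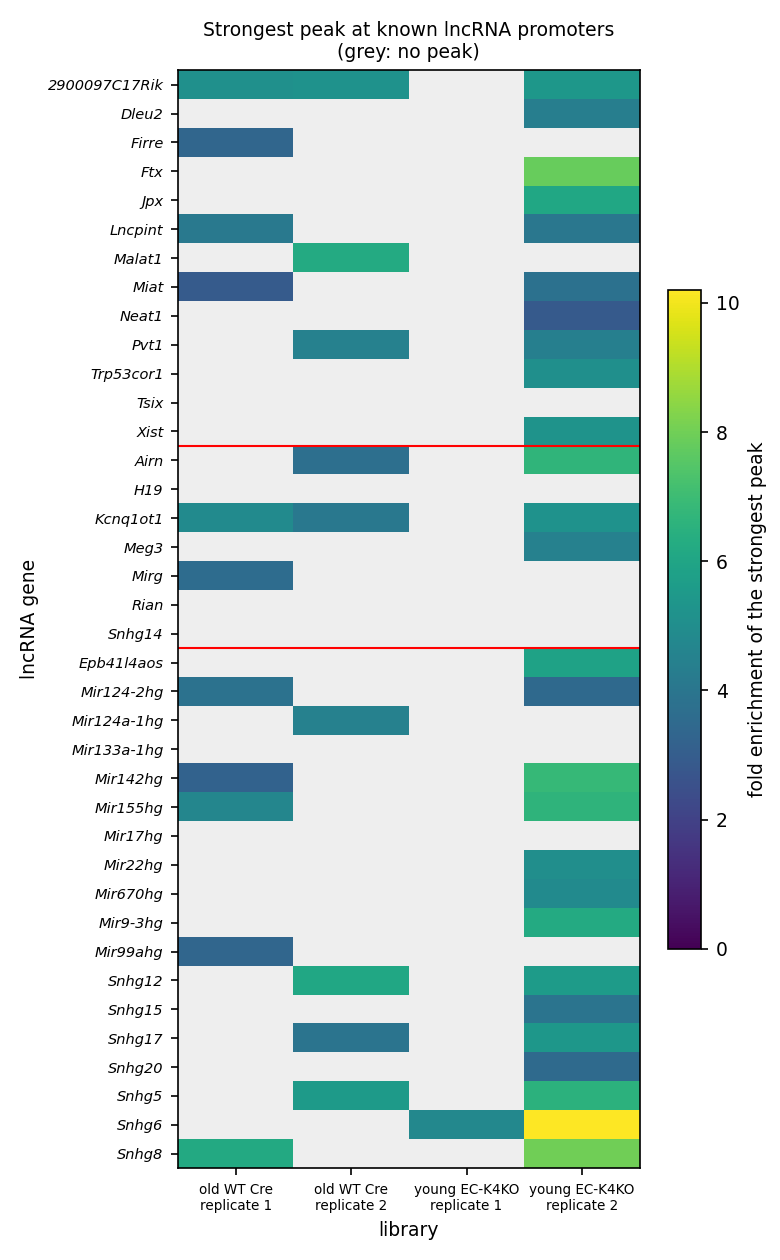
Fold enrichment of the strongest peak (colour) in each library (columns) at the promoters of lncRNAs of chromatin and nuclear bodies (top block), imprinted lncRNAs (middle block) and small RNA host genes (bottom block), with grey for no peak. Young EC-K4KO replicate 2 has most of the peaks, young EC-K4KO replicate 1 only that at Snhg6, with 4.78, and 2900097C17Rik and Kcnq1ot1 are filled in 3 of 4 columns.

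Of 7 imprinted lncRNAs, 2 and 2 had a peak in old WT Cre, against 0 and 3 in young EC-K4KO, beside 14.4%, 7.67%, 4.70% and 36.4% of all lncRNA promoters. Kcnq1ot1, which silences the Cdkn1c domain, had fold enrichments of 4.88 and 4.10 in old WT Cre, against 5.22 in young EC-K4KO replicate 2, with summits 769, 1107 and 1247 bp downstream of the TSS. Airn, which silences Igf2r, had 3.73 in old WT Cre replicate 2, against 6.66 in young EC-K4KO replicate 2. Meg3 had 4.48 in young EC-K4KO replicate 2 and Mirg 3.61 in old WT Cre replicate 1, while H19, Rian and Snhg14 had no peak. Of 7 developmental lncRNAs, only Dlx6os1 (4.70 in old WT Cre replicate 1) and Hotair (4.96 in young EC-K4KO replicate 2) had one, and Carmn, Dnm3os, Hand2os1, Rmst and Sox2ot had none.

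The lncRNA promoters whose nearest protein-coding TSS belongs to an EC gene numbered 51, and 5 and 3 of them had a peak in old WT Cre, against 1 and 17 in young EC-K4KO. As a share, each of these was below the 14.4%, 7.67%, 4.70% and 36.4% of all lncRNA promoters. None had a peak in both libraries of either group, where 2.79% and 2.59% of all lncRNA promoters did. Gm29682, antisense and 4248 bp from the TSS of the EC cadherin gene Cdh5, had a peak in old WT Cre replicate 1 with a fold enrichment of 3.77 and a −log10 q of 6.5, and in young EC-K4KO replicate 2 with a fold enrichment of 4.41 and a −log10 q of 31.6. Of the 4 members nearest to Klf4, Gm12506 had a peak in old WT Cre replicate 1 and young EC-K4KO replicate 2, Gm12510 in old WT Cre replicate 2, Gm12511 in young EC-K4KO replicate 2 and Gm12519 in none. They lay 72683, 66652, 30799 and 461273 bp from the Klf4 TSS.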

How the data were processed

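Pol II ChIP-seq peak lists of 4 libraries were analysed. Per the study's methods, the authors trimmed the reads, mapped these to mm10 (Bowtie2), discarded PCR duplicates and called peaks with MACS. They then merged replicates into consensus peaks with MSPC. The results here rest on the lists of single libraries instead. The file headers give MACS 2.2.7.1, a q-value cutoff of 0.01, no control library and duplicates kept at that step. The deposited peak tables list the summit pileup, which is a coverage signal counted in fragments, and the fold enrichment, a ratio to local background. They also give −log10 p-value and −log10 q-value columns from the authors' peak caller. No value was normalized between libraries, so comparisons were made within libraries. The narrow peak and summit files repeat these peaks and were not used.

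Promoters came from the GENCODE M21 basic annotation, with 1 TSS per gene at its annotated 5′ end. A promoter had a peak where any base of one lay within 1500 bp of the TSS, and the peak with the highest −log10 q was taken as its strongest. Genome windows were counted in full, with no random draw. Base composition and sequences were read from the mm10 assembly (samtools 1.23.1, pysam 0.24.0), and statistics used Python 3.11.15 (pandas 2.3.3, numpy 2.4.6, scipy 1.17.1). The overlap and exact tests were checked on simulated data. Sign-flip permutations took the library as the unit. Peaks rest on at least 13, 8, 9 and 7 fragments in the 4 libraries, and weaker occupancy cannot be seen.

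Genes named are the members of lists of known lncRNAs, the 12 members with a peak in all 4 libraries whose smallest −log10 q was highest, and for each group the 5 with a peak in both of its libraries alone, with exceptions stated. Members, lists and tests were chosen with earlier results of these data known. Alternatives covered peak thresholds, list length, window size, distance rules, transcript starts, repeats, chromosomes, clusters, the weighting of genome windows, each library left out and the replicate block.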

Additional observations from a re-analysis of the deposited data

Results flagged for a closer look

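Genes typed TEC, a GENCODE class of transcripts that await experimental testing, were in no comparison above. Of 3219 such genes, 2820 start over 3000 bp from every protein-coding TSS, and 9.86% and 4.89% of these had a peak in the old WT Cre pair, against 4.72% and 28.0% in the young EC-K4KO pair. Genome windows, weighted by chromosome as the lncRNA promoters and not as these genes, had 9.19%, 4.67%, 4.17% and 24.4%, lower in each library. The exact 95% intervals of the TEC shares, for counting error only, held these values except in young EC-K4KO replicate 2 (26.4 to 29.7%). That does not show that the classes were alike. No control library was there to set a background, and GC content was not matched in this comparison.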

How the results depend on the processing

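The differences in share between lncRNA promoters and protein-coding promoters, and between CpG-rich and other lncRNA promoters, kept their sign under every alternative run, from -16.7 to -5.10 and from 16.7 to 30.6 percentage points. The difference from genome windows stayed positive, from 0.208 to 9.43 points, the lowest values, 0.208 to 0.733, being the 5 with GC content matched. Of these, matching GC content within chromosomes changed nothing else and gave 0.680. The 4 libraries allow no sign-flip p below 0.13, so no result could pass a threshold of 0.05. The group difference in lncRNA share became -1.11 points with lists of equal length and ran from -6.35 to 25.4 points when each library was left out, the lowest value being that without young EC-K4KO replicate 2. The group difference in the ratio of shares became -0.0330 at a −log10 q of at least 5, -0.105 with lists of equal length and -0.00158 without CpG-rich promoters, and ran from -0.0965 to 0.192 when each library was left out, the lowest value being that without old WT Cre replicate 2. The cause of these changes was not tested.

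The counts of lncRNA promoters with a peak in the old WT Cre pair, the young EC-K4KO pair and all 4 libraries (214, 198 and 32) became 87, 49 and 12 at a −log10 q of at least 5, 104, 92 and 13 at a fold enrichment of at least 4, 109, 68 and 15 with lists of equal length, 94, 79 and 10 with a window of 500 bp, 391, 443 and 71 with a window of 3000 bp, 488, 417 and 95 with no start left out, and 190, 181 and 27 without windows mostly made of repeats. Without members in mostly repeated sequence the count in all 4 libraries was 15. With each library left out, which asks for a peak in fewer libraries, the counts ran from 214 to 1106, from 198 to 2788 and from 38 to 140.

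With the replicate number as a block, the group differences were the same by construction, 9.50 points and 0.0480, and the exact permutation p was 1 for both, where 2 pairs allow no p below 0.5. The deviations of replicate 1 from its group mean correlated at -0.0124 between the groups over the 7657 lncRNA promoters. Promoters are not replicates, so this value cannot show whether the libraries were paired by number. Absence of a peak means only that none passed the caller's threshold, where the smallest pileup called was 13, 8, 9 and 7 fragments. Peak counts themselves did not follow depth.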
